A study of Arabidopsis thaliana with 14 samples.

Results

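Binding of the type-B response regulators (B-ARRs) in Arabidopsis thaliana seedlings was recorded as one list of ChIP-seq peaks per condition, and 726 places were strongly bound in 8 of the lists. These core peaks were chosen by 2 deposited values, the peak score and the peak's position. A peak of the ARR1 list after 4 h of 6-BA was a core peak when its score was at least 16 and it overlapped, by at least 1 bp, a peak with a score of at least 16 in each of 7 other lists. The score is the −log10 p-value of MACS2, the program that called the peaks, and a peak that reached 16 is called strong here. The ARR1 list held 7846 peaks, of which 4580 were strong, so the core peaks made up 15.9% of the strong peaks. All 10 deposited lists together held 66593 peaks.

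B-ARRs are the transcription factors at the end of cytokinin signalling. A receptor kinase in the membrane passes a phosphate through carrier proteins to the receiver domain of a B-ARR, which then binds DNA and activates genes. Among the first genes to respond are the type-A response regulators, which damp the same signal, and enzymes that break cytokinin down. The short sequence that B-ARRs are known to favour has AGAT at its centre.

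Of the 10 lists, 9 came from Col-0 plants that carried a tagged copy of ARR1 (isoform ARR1.2), ARR10, ARR12 or ARR14. The Ypet tag, a yellow fluorescent protein, sat at the C-terminus, and each copy kept its native regulatory sequence. The tenth, called ARR1DDK Dex here, came per the methods from ARR1 lacking its receiver domain, fused to the glucocorticoid receptor and driven by the 35S promoter, with 10 µM dexamethasone for 4 h, although its line label names the full-length ARR1 line. Seedlings were whole and 3 days old. They grew in long days, apart from the etiolated ARR1 plants, which grew in the dark. Mock plants received DMSO for 4 h. Short cytokinin treatment was 10 µM 6-benzylaminopurine (6-BA) for 4 h. Long treatment was growth on 10 µM 6-BA for 72 h, named 6-BA 3 days here. The 7 other lists of the rule were ARR1 etiolated mock, ARR1 6-BA 3 days, ARR1DDK Dex, ARR10 mock, ARR10 6-BA 4 h, the ARR12 list labelled mock and ARR14 6-BA 3 days. The rule did not use ARR1 mock (long day) or the ARR12 list labelled 6-BA.

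Each condition had a single list made from combined replicates, so no value has a spread between replicates, and no test between conditions was possible. Read depth is unknown. The labels and the study's own target tables pair the 2 ARR12 lists with mock and 6-BA in opposite ways, so both keep their labels here and no direction is drawn from them. With the ARR12 list labelled 6-BA in place of the one labelled mock, 314 core peaks were found, of which 304 were also core peaks under the labels. Antibody controls and input were not analysed here. A tagged transgene adds copies of its gene and of the sequence cloned with it. Within 50 kb of ARR1, ARR10, ARR12 or ARR14 lay 6 core peaks, near AT3G03375, COBL8, AAE7, AT4G32020, HSL1 and the receptor gene AHK4, which is close to ARR14.

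The genomic sequence at the summit, the base with the most signal, is shown for 11 of the 12 core peaks that ranked highest across the lists, because these had the best rank in whichever list ranked them lowest, and for ARR7, whose window held the most motif copies. All are TAIR10 sequence on the + strand, 100 bp to each side of the ARR1 6-BA 4 h summit, and the ARR7 window is trimmed to the bases outside its UTR. Capitals mark AGATHY on either strand, which stands for AGAT, then any base but G, then C or T. They also mark the G-box CACGTG.
CKX5 locus, chr1:28315636-28315836: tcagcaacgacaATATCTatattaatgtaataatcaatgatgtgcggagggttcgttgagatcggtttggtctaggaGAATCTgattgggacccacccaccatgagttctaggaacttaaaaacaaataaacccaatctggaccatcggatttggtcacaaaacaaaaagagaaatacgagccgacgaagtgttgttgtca
ARR4, chr1:3444707-3444907: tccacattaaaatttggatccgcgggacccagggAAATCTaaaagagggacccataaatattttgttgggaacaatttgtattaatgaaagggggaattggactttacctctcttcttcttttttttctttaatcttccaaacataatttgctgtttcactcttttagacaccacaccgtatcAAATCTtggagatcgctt
AT5G67411, chr5:26901219-26901419: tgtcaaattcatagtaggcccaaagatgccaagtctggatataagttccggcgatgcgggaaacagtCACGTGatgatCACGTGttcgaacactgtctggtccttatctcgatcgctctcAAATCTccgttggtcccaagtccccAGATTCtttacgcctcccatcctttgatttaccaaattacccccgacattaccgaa
AT1G02210, chr1:426524-426724: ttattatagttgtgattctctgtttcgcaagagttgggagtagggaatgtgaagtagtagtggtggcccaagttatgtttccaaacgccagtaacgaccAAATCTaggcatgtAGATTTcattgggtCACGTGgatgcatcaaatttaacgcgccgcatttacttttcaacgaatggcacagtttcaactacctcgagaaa
AT1G68670, chr1:25781160-25781360: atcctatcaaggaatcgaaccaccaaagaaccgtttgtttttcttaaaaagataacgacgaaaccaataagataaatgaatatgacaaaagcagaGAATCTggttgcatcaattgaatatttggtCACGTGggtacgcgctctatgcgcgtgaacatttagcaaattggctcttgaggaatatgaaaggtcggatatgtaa
ACR8, chr1:4229976-4230176: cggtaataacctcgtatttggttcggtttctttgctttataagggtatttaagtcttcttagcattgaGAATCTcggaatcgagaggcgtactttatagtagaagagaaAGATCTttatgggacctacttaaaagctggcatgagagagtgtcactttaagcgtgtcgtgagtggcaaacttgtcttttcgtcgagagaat
AT1G04697, chr1:3031625-3031825: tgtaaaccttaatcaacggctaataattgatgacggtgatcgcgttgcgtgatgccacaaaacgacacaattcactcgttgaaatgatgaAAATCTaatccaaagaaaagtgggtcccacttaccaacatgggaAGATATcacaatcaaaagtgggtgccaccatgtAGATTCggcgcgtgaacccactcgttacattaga
AT1G55690, chr1:20815040-20815240: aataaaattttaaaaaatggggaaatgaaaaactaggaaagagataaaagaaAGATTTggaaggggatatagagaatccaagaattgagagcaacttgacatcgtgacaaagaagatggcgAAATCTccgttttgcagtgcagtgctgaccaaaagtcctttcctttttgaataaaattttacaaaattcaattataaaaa
EBF1 locus, chr2:10847111-10847311: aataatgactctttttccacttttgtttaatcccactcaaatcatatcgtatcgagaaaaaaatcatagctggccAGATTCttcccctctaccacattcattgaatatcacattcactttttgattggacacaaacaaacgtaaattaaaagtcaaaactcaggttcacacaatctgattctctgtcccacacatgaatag
AT5G00390, chr5:4193622-4193822: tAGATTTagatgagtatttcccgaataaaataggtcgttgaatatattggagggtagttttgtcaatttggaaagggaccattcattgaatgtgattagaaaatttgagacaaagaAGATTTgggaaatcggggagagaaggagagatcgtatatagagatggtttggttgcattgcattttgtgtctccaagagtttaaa
GI, chr1:8060920-8061120: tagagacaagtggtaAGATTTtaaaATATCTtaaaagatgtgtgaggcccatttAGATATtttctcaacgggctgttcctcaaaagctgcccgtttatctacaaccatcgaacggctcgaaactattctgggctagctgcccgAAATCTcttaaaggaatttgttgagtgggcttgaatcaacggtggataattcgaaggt
ARR7, chr1:6579315-6579422: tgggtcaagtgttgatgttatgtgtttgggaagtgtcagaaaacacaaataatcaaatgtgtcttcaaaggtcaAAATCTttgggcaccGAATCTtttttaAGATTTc
All 11 of these high-ranking windows held at least 1 AGATHY, a motif found within 100 bp of 68.4% of all strong summits, and GI held 4. Summits of other lists can lie outside these windows. At CKX5 those of all 7 other lists did, and at GI those of ARR1 etiolated mock, ARR1 6-BA 3 days, ARR1DDK Dex and ARR14. The ARR1DDK Dex summit at AT1G68670 and the ARR12 labelled mock summit at ACR8 also did. The windows at AT1G02210 and AT1G68670 held 1 G-box each and that at AT5G67411 held 2. A run of GGGACC or its reverse complement GGTCCC also lay in several of them, among these CKX5, ARR4, AT5G67411 and ACR8.

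The overlap that made the rule was uneven across lists. Over all 4580 strong ARR1 6-BA 4 h peaks, 91.1% overlapped a strong peak of ARR1 6-BA 3 days, 89.5% one of ARR10 6-BA 4 h, 83.6% one of ARR14 6-BA 3 days, 73.5% one of ARR10 mock and 72.7% one of the ARR12 list labelled mock. Only 42.0% overlapped one of ARR1DDK Dex and 27.1% one of ARR1 etiolated mock. These 7 shares are what the rule used, and the core peaks hold all 7 by construction. The etiolated and ARR1DDK lists therefore set most of the limit. Of the 898 peaks that missed the rule in 1 list, 602 missed it in ARR1 etiolated mock and 208 in ARR1DDK Dex, while 45 missed it in ARR12 labelled mock, 32 in ARR10 mock, 8 in ARR14, 2 in ARR10 6-BA 4 h and 1 in ARR1 6-BA 3 days. Without the etiolated list the rule gave 1328 peaks. For 855 of the 898, the missing list held no peak of any score at that place. The lowest deposited scores were 20.6 in the etiolated list, 31.21 in ARR1DDK Dex and 28.27 in ARR14, all above 16, so in these lists every peak was strong.

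The members just inside the limit were a peak near FRO3, a ferric reductase gene (score 16.02 in ARR12 labelled mock), one near HAT22, a homeobox gene (16.06 in ARR10 mock), and one at the start of the gene PPa4 (16.12 in ARR1 6-BA 4 h). Just outside were peaks near AT4G28840 and AT5G47050, each with 15.98 in ARR12 labelled mock, and one near AT5G52840 with 15.92 in ARR1 6-BA 3 days. Their scores in the ARR1 6-BA 4 h list were 52.52, 43.92 and 40.84, above the 32.78 of the FRO3 peak. In 94 core peaks the lowest of the 8 scores was under 20.

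Rank was measured within each list, by score, as a percentile of that list's strong peaks, where 0 is the strongest. The score chose the members, so ranks are a description. The core peaks sat highest in ARR1 6-BA 3 days (median percentile 8.84) and ARR10 6-BA 4 h (12.0). They followed in ARR14 (13.9), ARR1 6-BA 4 h (14.6), ARR12 labelled mock (16.2) and ARR10 mock (16.8), and sat lowest in ARR1DDK Dex (23.6) and ARR1 etiolated mock (33.3). The last 2 lists are short, with 2916 and 1513 strong peaks, so that the core peaks were 24.8% and 47.7% of them, against 7.17% of the 9913 strong ARR14 peaks. Each list's 100 strongest peaks contained between 45 (ARR14) and 92 (etiolated) core peaks.

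**Figure D1:**
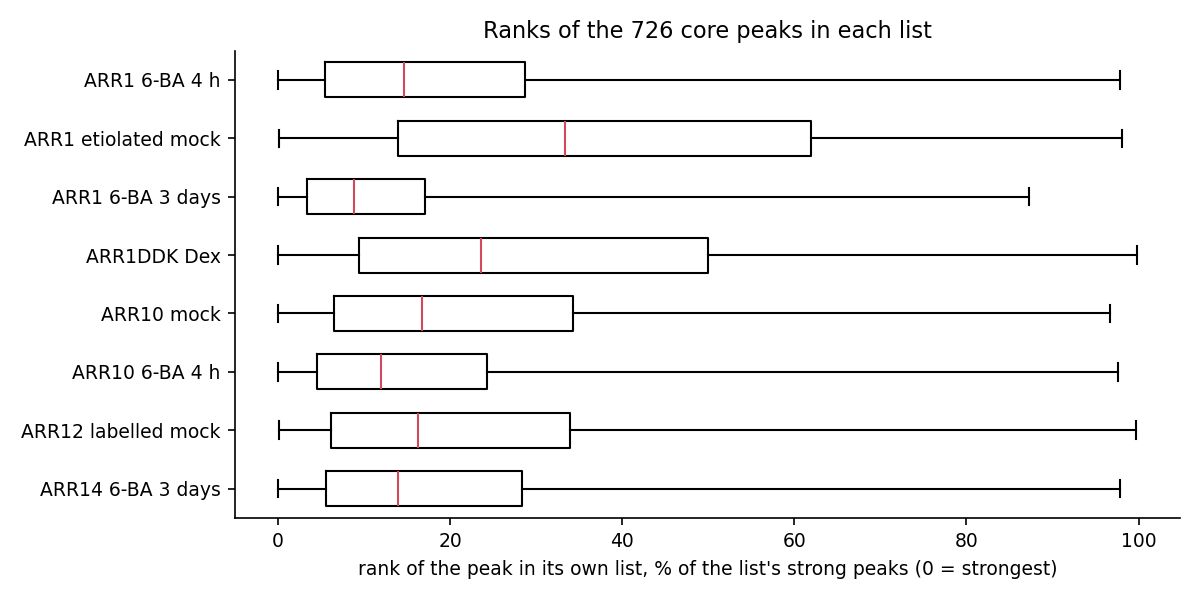
Rank percentile of the 726 core peaks in each of the 8 lists of the rule (0 is the strongest strong peak of that list). Lines in the boxes are medians, boxes run from the first to the third quartile and whiskers to the lowest and highest member; the median lies lowest on the axis, at 8.84, for ARR1 6-BA 3 days and furthest right, at 33.3, for ARR1 etiolated mock.

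Few members ranked high everywhere. In the top 10% of all 8 lists were 33 core peaks, in the top 25% were 131, and in the top 50% were 311. The worst of a member's 8 percentiles had a median of 56.1, and in 87 members it exceeded 90. That worst rank fell in the etiolated list for 274 members and in ARR1DDK Dex for 184, but in ARR1 6-BA 3 days for only 2.

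The member with the best worst rank lay in CKX5, a cytokinin oxidase that breaks the hormone down. Its scores were 107.55 in ARR1 6-BA 4 h, 87.18 in ARR1 etiolated mock, 233.49 in ARR1 6-BA 3 days, 224.68 in ARR1DDK Dex, 70.16 in ARR10 mock, 108.59 in ARR10 6-BA 4 h, 142.97 in ARR12 labelled mock and 276.08 in ARR14. It thus stood within the top 0.795% of every list, ranking between 2nd and 33rd. The same region also holds UBC16, a ubiquitin-conjugating enzyme gene, and the non-coding gene AT1G09553. The summits of this 7338 bp peak did not coincide. Relative to the ARR1 6-BA 4 h summit, which lies in the CKX5 gene, those of etiolated ARR1, ARR1DDK, ARR10 mock, ARR10 6-BA and ARR14 lay at -2266 to -2219 bp, near the start of UBC16, and those of ARR1 6-BA 3 days and ARR12 labelled mock lay at 3296 and 3316 bp, upstream of the CKX5 start.

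The type-A response regulator gene ARR4 came next. Scores at its summit, 447 bp upstream of the gene start, were 112.5 in ARR1 6-BA 4 h, 98.28 in ARR1 etiolated mock, 244.01 in ARR1 6-BA 3 days, 187.88 in ARR1DDK Dex, 102.15 in ARR10 mock, 115.79 in ARR10 6-BA 4 h, 111.82 in ARR12 labelled mock and 280.72 in ARR14. This was the strongest peak of all in ARR1 6-BA 3 days and in ARR14, and the second in the etiolated list. The summits of the 7 other lists lay within 57 bp of the ARR1 6-BA 4 h summit.

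EBF1 encodes an F-box protein that removes the ethylene factor EIN3. The peak just past its 3′ end and 818 bp upstream of AT2G25482 was the strongest of its list in ARR1 6-BA 4 h (120.42), ARR10 mock (122.84) and ARR10 6-BA 4 h (128.39). Its scores were 77.89 in ARR1 etiolated mock, 221.77 in ARR1 6-BA 3 days, 143.6 in ARR1DDK Dex, 168.4 in ARR12 labelled mock and 273.77 in ARR14. Its place in ARR1DDK Dex, 118th, was its worst rank and put it 10th overall.

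The other 9 of the first 12 had a lowest score between 49.71 and 75.1 over the 8 lists and a highest score between 210.04 and 277.24. They lay near a GRAS-family factor (AT5G67411, summit 1583 bp upstream of the gene start), a NAC-domain gene (AT1G02210), a myb-like factor (AT1G68670) and the ACT-domain repeat gene ACR8. The rest lay near the non-coding gene AT1G04697, LBD41 of the LOB-domain factors, the Sec14-like gene AT1G55690, AT5G00390 beside the NAC factor gene NAC083, and the clock gene GI. The summit in AT1G04697 also lay in an intron of the lipase-like gene AT1G09390. At AT5G67411, AT1G55690 and AT5G00390 the summit lay more than 1.5 kb from any annotated gene, although the peak itself reached closer and covered AT5G00390. ARR14 gave the highest score in all 12 of these members, and the scores differ between lists in their range, so a higher score in one list than in another need not be a higher rank.

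**Figure D2:**
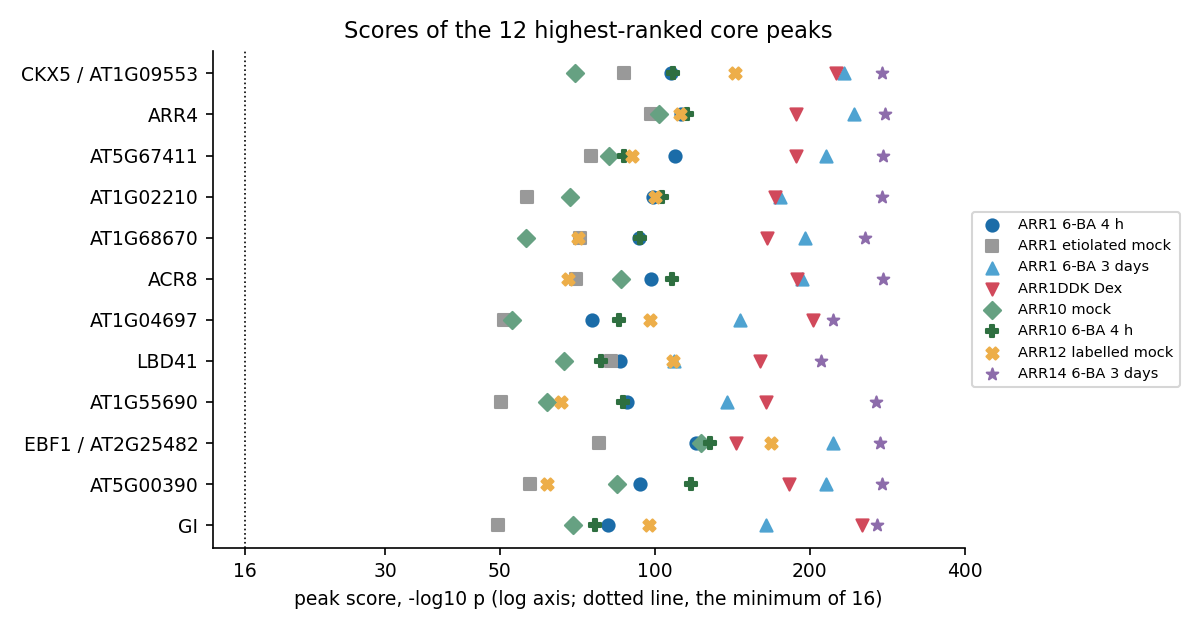
Peak scores (−log10 p, log axis) of the 12 core peaks with the best worst rank, one symbol per list. Every symbol lies right of the dotted minimum of 16, with ARR14 furthest right between 210.04 and 280.72.

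The summit was not part of the rule. For each member, the summit of the highest overlapping strong peak in each of the 7 lists was compared with the ARR1 6-BA 4 h summit. In every list the median distance was small, between 34 bp (ARR1 6-BA 3 days) and 41.0 bp (ARR14). A summit within 100 bp was found for 72.6% of members in ARR14 and for up to 80.9% in ARR1 6-BA 3 days. Agreement in all lists at once was less common. The largest of the 7 distances had a median of 121 bp (quartiles 65.2 and 769 bp), was at most 100 bp in 323 members (44.5%) and exceeded 1000 bp in 147 (20.2%). The closest agreement was at AT3G29805, where the 7 other summits lay within 15 bp of it, followed by the CCAAT-binding subunit gene NF-YA4 (18 bp). These distances are given for core peaks only, so whether other overlapping strong peaks agree as closely was not tested.

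**Figure D3:**
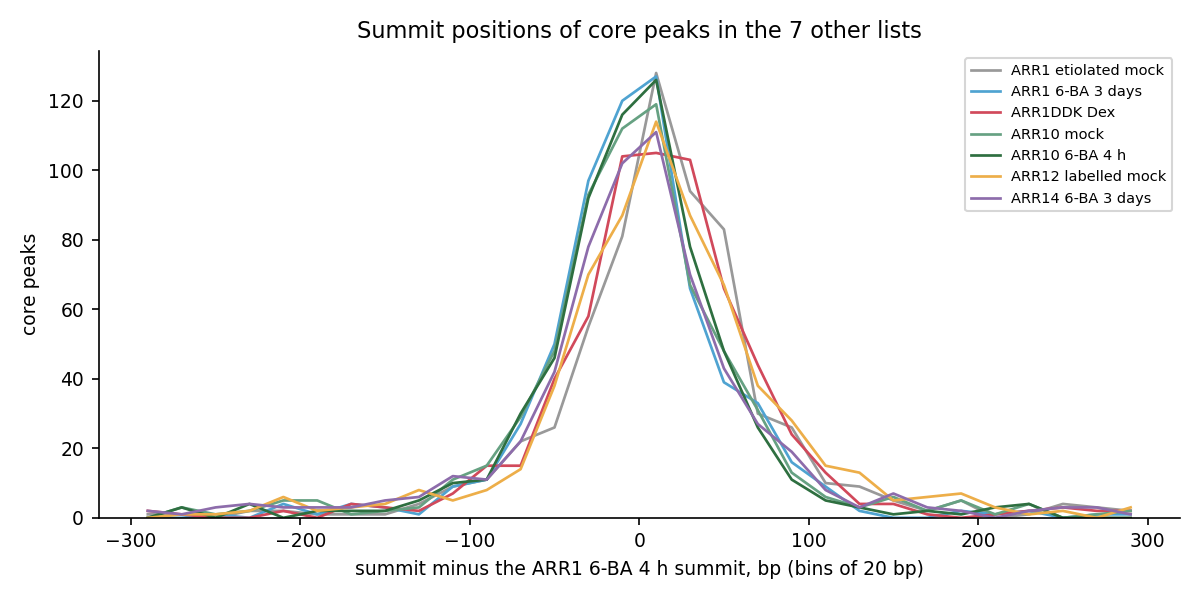
Number of core peaks (vertical axis) by the distance of a list's summit from the ARR1 6-BA 4 h summit (horizontal axis, bp, bins of 20 bp), one line for each of the 7 other lists. All 7 lines peak next to 0, and the median distance per list lies between 34 and 41 bp.

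Distances were larger where peaks were wide. Among the 407 members with no peak over 3 kb in any of the 8 lists, the largest distance had a median of 89 bp, against 502 bp among the 319 with a wider peak. The farthest apart was RAV1, a gene of an ethylene-responsive DNA-binding factor, whose ARR10 mock summit was 7873 bp away from the ARR1 summit. That ARR10 mock peak was 10225 bp wide and was also the partner of another core peak, farther upstream of RAV1. A peak beside IAA20, an Aux/IAA repressor gene, showed 2 places at once: the etiolated, ARR1 6-BA 3 days, ARR1DDK and ARR14 summits were 6613 to 7242 bp to the right of the ARR1 6-BA 4 h summit, whereas both ARR10 summits were within 77 bp of it. Core peaks were themselves wider than the other strong peaks of their list (median 1604 against 1120 bp). With a reciprocal overlap of at least 50% the rule left 255 peaks.

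Core peaks lay near gene starts about as often as other strong peaks. The summit was within 250 bp of an annotated transcription start site (TSS) in 306 of 726 (42.1%, 95% Wilson interval 38.6 to 45.8), against 38.9% (37.4 to 40.5) of the 3854 other strong peaks and 39.5% of all strong peaks. Wilson intervals here cover counting error only, and regions of one list are not replicates. Against the nearest gene within 1.5 kb, 357 summits (49.2%, 45.6 to 52.8) were upstream of the gene, compared with 43.3% (41.8 to 44.9) of the others. In a 5′ UTR lay 121 (16.7%, against 18.5% of the others), in a coding exon 44 (6.06%, against 5.84%) and in an intron 22 (3.03%, against 3.89%). Downstream of the gene lay 64 (8.82%, against 12.8% of the others). No gene was within 1.5 kb of 72 summits (9.92%, against 9.24% of the others). The share of strong peaks that were core peaks was similar on the 5 chromosomes, from 14.7% on chromosome 2 to 16.8% on chromosome 5. Between neighbouring core summits the median gap was 85351 bp, and 88 of 721 gaps were under 10 kb.

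AGATHY was present within 100 bp of 553 core summits (76.2%, 72.9 to 79.1). The share was 66.9% (65.4 to 68.4) in the other strong peaks and 68.4% in all of them, and in windows of the same length 500 bp to the left and right of the core summits it was 63.4% and 63.5%. The motif is short and frequent, so the contrast is in degree: a core window held 1.39 copies on average, a window beside a core summit 1.04 and the window of another strong peak 1.17. Among the 553 core peaks with a copy within 100 bp, the nearest copy had a median distance of 30.5 bp from the summit. Where the 7 other summits lay within 100 bp of the ARR1 summit, 82.4% (77.8 to 86.1) of 323 members had the motif, and 71.2% (66.6 to 75.4) of the other 403. Of the 6 forms, AGATCT stood at 14.0% of core summits against 7.58% in the left flank, AGATTC at 24.9% against 16.7% and AGATTT at 37.7% against 28.9%, while AGATAT was as frequent in the flank (20.9%) as at the summit (20.5%). No copy was found within 100 bp of 173 core summits.

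The G-box CACGTG, a core sequence known to be bound by bHLH and bZIP factors, was far more local. It lay within 100 bp of 200 core summits (27.5%, 24.4 to 30.9), of 18.0% (16.8 to 19.3) of the other strong summits and of 19.5% of all, but in only 2.48% and 3.03% of the core flanks. Among members with no peak over 3 kb the share was 33.2% (28.8 to 37.9), and among those with a wider peak 20.4% (16.3 to 25.1). Of the 608 sequences of 6 bases found in at least 10% of core windows, GGGACC had the highest ratio of summit to flank windows (14.2% against 1.38%), ahead of the G-box. CACGCG followed at 16.5% against 1.79%, and ACGCGC at 14.2% against 1.72%. Each of these was also less frequent at the other strong summits, at 8.98% for GGGACC, 7.39% for CACGCG and 5.84% for ACGCGC. The evening element AAAATATCT was rare, at 2.34% of core summits and 2.20% and 1.93% of the flanks. These sequences were looked at on both strands, and G-box, 6-base and evening-element counts were made after the data had been seen. GC content was a median 39.3% in core windows and 36.8% in those of other strong peaks, and its part in these shares was not tested.

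**Figure D4:**
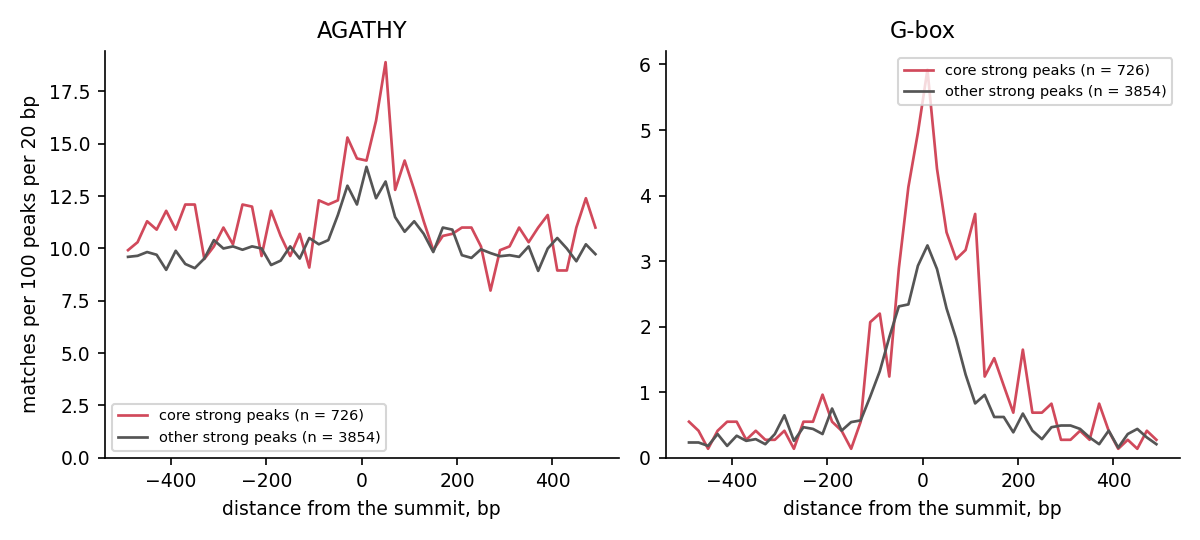
Copies of AGATHY (left) and of the G-box (right) per 100 peaks in bins of 20 bp (vertical axis) by distance from the ARR1 6-BA 4 h summit in bp (horizontal axis), for 726 core and 3854 other strong peaks. Both motifs rise at the summit, in the core peaks above the others, and the G-box falls to a low level at 500 bp while AGATHY stays frequent.

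The lists that the rule did not use also held core peaks more often. In the long-day ARR1 mock list, 433 core peaks (59.6%, 56.0 to 63.2) overlapped a deposited peak of any score, against 24.6% (23.3 to 26.0) of the other strong peaks and 30.2% of all. Those mock peaks had low scores, with a median of 7.65. The ARR1 mock targets in the study's own tables match this list poorly, so that its label is in doubt and values from it are given as the labels name it. Only 30 core peaks (4.13%, 2.91 to 5.84) met a strong peak there, against 1.48% of all, in a list with just 73 strong peaks. The strongest of them were at RAP2.4, the gene of an ethylene-response-factor-type protein (67.24), and at the polyubiquitin gene UBQ10 (55.82). In the ARR12 list labelled 6-BA, 304 core peaks (41.9%, 38.3 to 45.5) overlapped a strong peak, against 7.50% (6.71 to 8.37) of the others and 12.9% of all. With every deposited peak of that list counted, the shares were 88.6% of core and 47.6% of all strong peaks. The ARR1 mock list comes from the same line as the peaks counted here, and the ARR12 list from the same line as a list in the rule. Both shares were higher in wide members. Among those with a peak over 3 kb in any of the 8 lists, 72.1% met any ARR1 mock peak. In the same members, 49.8% met a strong peak of that ARR12 list. Among members without such a wide peak, the shares were 49.9% and 35.6%. Core peaks were wider than the others (median 1604 against 1120 bp), and the part of width in these shares was not tested.

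Score and these shares moved together. Core peaks had a median score of 44.5 in ARR1 6-BA 4 h, against 23.7 in the others. Among peaks with a score of 60 or more, an ARR1 mock peak was present at 86.1% (80.4 to 90.3) of 187 core and 87.5% (77.9 to 93.3) of 72 other peaks. Between 16 and 25 it was present at 32.3% (22.0 to 44.6) of 62 core and 15.1% (13.7 to 16.7) of 2176 other peaks. For a strong peak in the ARR12 list labelled 6-BA, the shares were 71.1% (64.3 to 77.1) and 54.2% (42.7 to 65.2) at 60 or more, and 21.0% (12.7 to 32.6) and 3.26% (2.59 to 4.10) between 16 and 25. AGATHY was at 80.7% (74.5 to 85.8) of core and 79.2% (68.4 to 86.9) of other peaks at 60 or more, and at 74.2% (62.1 to 83.4) and 66.5% (64.5 to 68.5) between 16 and 25.

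Strong ARR1 6-BA 4 h peaks were also ordered by how many of the 7 lists they met. An ARR1 mock peak was present at 22.2% of the 36 peaks met by none, at 18.1% of the 498 met by 3, at 34.3% of the 898 met by 6 and at 59.6% of the core. A strong peak in the ARR12 list labelled 6-BA rose from 0 of 36 to 13.1% at 6 lists and 41.9% in the core. AGATHY was lowest at none (47.2% of 36) and highest in the core (76.2%). Between these it showed no steady course, at 75.5% for 1 list, 63.3% for 5 and 70.4% for 6. The share near a TSS stayed between 30.6% and 42.2%.

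**Figure D5:**
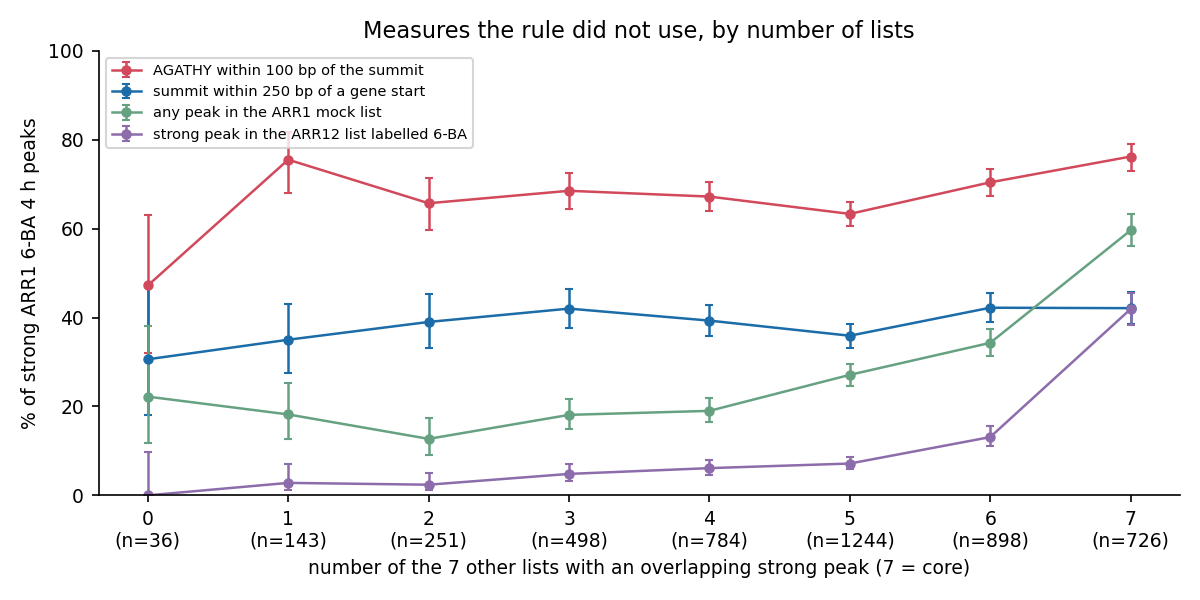
Share of strong ARR1 6-BA 4 h peaks (vertical axis, %, with 95% Wilson intervals) by the number of the 7 other lists with an overlapping strong peak (horizontal axis; 7 is the core). Presence in ARR1 mock and in the ARR12 list labelled 6-BA is highest in the core, at 59.6% and 41.9%, while nearness to a gene start is flat.

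The same line was sampled with and without hormone for ARR10 and ARR1. Of the 726 core peaks, 640 (88.2%) had a higher score in ARR10 6-BA 4 h than in ARR10 mock, with medians of 51.9 and 35.2. The fold enrichment had medians of 4.70 and 4.65 and was higher after 6-BA in 336 members (46.3%), and the rank percentile was better after 6-BA in 255 (35.1%). Other strong peaks with a peak in both lists gave 80.4% for score, 48.1% for fold and 35.2% for rank. For ARR1, the 433 members with a peak in both the long-day mock list and the 6-BA 4 h list all had the higher score after 6-BA. Their fold was higher after 6-BA in 364 (84.1%), with medians of 2.83 in mock and 3.46 after 6-BA, and in 54.2% of 950 other strong peaks. The 6-BA score chose these members and the mock list's label is in doubt. From ARR1 6-BA 4 h to 3 days the fold was higher in all 726 members, with medians of 3.21 and 8.74, and in 99.9% of the others. The title of the sample treated for 3 days carries an added code that the sources do not explain, so a shared line is assumed for this contrast. Of the 643 members with a peak in both ARR12 lists, 12 had the higher score in the list labelled 6-BA. Each of these contrasts sets 1 combined list against 1, and depth and treatment cannot be told apart.

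Within 1.5 kb of core summits lay 1126 annotated genes, 2.97% of the 37899 in the annotation. Protein-coding were 954 of them, or 3.48% of 27444. All strong peaks of the list together reached 6629 genes, which include these 1126. The counts near a core peak below are to be read beside the 2.97% of all genes and 3.48% of protein-coding genes. The counts near any strong peak are to be read beside 6629 of 37899 genes. Whether any list departs from these was not tested. A further look was taken at lists of genes for hormones, light and development, chosen with earlier results of these data known. Of 295 listed genes with a match in the annotation, 161 were near any strong peak and 47 near a core peak. Near means within 1.5 kb of the summit, and for 12 of the 47 the start of another protein-coding gene was nearer.

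Of the 10 type-A response regulator genes, all 10 were near a strong peak and 5 near a core peak: ARR4, ARR5, ARR6, ARR7 and ARR9. The ARR5 summit was in the 5′ UTR, 60 bp from the gene start, with scores of 71.84 in ARR1 6-BA 4 h, 50.19 in ARR1 etiolated mock, 181.7 in ARR1 6-BA 3 days, 225.52 in ARR1DDK Dex, 54.66 in ARR10 mock, 118.14 in ARR10 6-BA 4 h, 36.44 in ARR12 labelled mock and 221.03 in ARR14. The ARR7 summit was 8 bp from its gene start and had 7 AGATHY copies within 100 bp, the most of any core peak, with 3 of them in the stretch printed above. ARR7 was at percentile 61.8 in the etiolated list (score 24.78) but at 1.24 in ARR1 6-BA 4 h (score 81.92), and its percentile in the 6 other lists was at most 3.64. ARR6 had scores from 33.78 (etiolated) to 277.24 (ARR14) with a median of 75.9, and ARR9 from 35.21 (ARR12 labelled mock) to 272.62 (ARR14) with a median of 93.5. At ARR6 the etiolated and ARR1DDK summits lay within 85 bp of the ARR1 6-BA 4 h summit, and those of the remaining lists at -894 to -856 bp. Its lowest and highest scores thus belong to different places.

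Upstream in the pathway, 4 of 9 receptor and phosphotransfer genes were near a strong peak. Only 1 of them, the cytokinin receptor gene AHK4, was near a core peak. Of 11 type-B response regulator genes, 4 were near a strong peak and none near a core peak. The AHK4 peak lay in an intron 756 bp past the gene start, and the other lists' summits lay within 33 bp of it. It scored 93.13 in ARR1 6-BA 4 h, 61.01 in ARR1 etiolated mock, 202.56 in ARR1 6-BA 3 days, 139.55 in ARR1DDK Dex, 71.9 in ARR10 mock, 101.85 in ARR10 6-BA 4 h and 106.02 in ARR12 labelled mock. It scored 268.02 in ARR14, the list of the line with a tagged copy of ARR14, whose native gene lies within 50 kb of this peak. Of 20 genes for cytokinin synthesis and activation, 8 were near a strong peak and only LOG7, an activating enzyme, near a core peak. The LOG7 peak had scores between 32.69 and 68.66 and a summit as far as 3412 bp from that of ARR1 6-BA 4 h. Of 14 genes for breakdown, conjugation and transport, 11 were near a strong peak and 3 near a core peak. The 3 were CKX5, the glucosyltransferase gene UGT76C2 (lowest 33.25, median 67.2, highest 271.47) and the transporter gene PUP14 (25.45, 49.5 and 168.4). UGT76C2 had its summit 30 bp upstream of the start and 3 copies of AGATHY, but no peak in ARR1 mock. Of 8 cytokinin response factor genes, 6 were near a strong peak. Among these, CRF4 (30.65, 48.8 and 211.12) and CRF6 (29.63, 47.6 and 109.24) were near core peaks. None of the 4 KMD genes, whose F-box proteins target B-ARRs for destruction, was near a core peak, although all 4 were near a strong one.

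In ethylene signalling 6 of 12 genes were near a strong peak and 2 near a core peak, EBF1 and the kinase gene CTR1. The CTR1 peak lay past the 3′ end of CTR1 with its summit in the 5′ UTR of the heat shock factor gene HSFA3, and its scores had a median of 81.1 (34.41 to 190.42). Of 61 auxin genes, 33 were near a strong peak. Core peaks lay near 8. The receptor gene TIR1 (lowest 49.7, median 88.9, highest 183.49) and the Aux/IAA gene IAA16 (49.61, 90 and 253.19) were strongest among these, and IAA20, ARF6, ARF19, AUX1, LAX2 and GH3.6 followed with medians from 38.8 to 58.4. Another coding gene's start was nearer to the summit at IAA20 (AT2G46995), ARF19 (AT1G19210) and LAX2 (GRP2B). The ARF genes encode auxin response factors, AUX1 and LAX2 importers, and GH3.6 an enzyme that conjugates auxin to amino acids. IAA16 had no AGATHY within 100 bp, and neither did GH3.6.

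In abscisic acid signalling 13 of 21 genes were near a strong peak. Core peaks lay near 5. These were the receptor gene PYL5 (29.12, 52.5 and 81.55 as lowest, median and highest score), the clade A phosphatase genes ABI1 (37.56, 46.7 and 89.71), ABI2 (23.57, 46.4 and 147.93) and AHG3 (52.75, 71.3 and 255.42), and the bZIP factor gene ABF3 (18.86, 47.5 and 126.72). The phosphatases hold the pathway's kinases inactive. The start of RPS2 was nearer to the summit than that of ABI1, and the start of AT3G11405 nearer than that of AHG3. The summits lay within 29 bp of the ARR1 summit at ABI2 and within 37 bp at AHG3. For gibberellin, 5 of 20 genes were near a strong peak and 2 near a core peak, the receptor gene GID1B and the catabolic GA2OX6. For brassinosteroid 8 of 11 genes were near a strong peak and 1, BEH3, near a core peak. For jasmonate 9 of 16 were near a strong peak and 2 near a core peak, the repressor genes JAZ1 and JAZ3.

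Of 20 matched clock genes, 7 were near a core peak and 13 near any strong peak. They were the morning gene CCA1, the pseudo-response regulators PRR5, PRR7 and PRR9, the evening genes GI and LUX (PCL1), and LNK3. At LUX the start of AT3G46630 was nearer to the summit. CCA1, 210 bp upstream of its start, scored 85.84 in ARR1 6-BA 4 h, 40.91 in ARR1 etiolated mock, 180.06 in ARR1 6-BA 3 days, 141.57 in ARR1DDK Dex, 57.56 in ARR10 mock, 70.95 in ARR10 6-BA 4 h, 95.78 in ARR12 labelled mock and 235.24 in ARR14, with summits within 35 bp. GI scored 252.44 in ARR1DDK Dex, number 4 in that list, and 49.71 in the etiolated list, which are percentiles 0.137 and 4.36. PRR9 and PRR7 had no peak in ARR1 mock, nor did either of the 2 core peaks of PRR5. These 2 peaks share their highest partner in 5 of the other lists, so they count as 2 in the ARR1 list but not in those. Of 23 light-signalling genes 12 were near a strong peak and 3 near a core peak, PIF6 and the B-box genes BBX21 and BBX22. Of 4 greening regulators 2 were near a strong peak and none near a core peak. Of 23 meristem regulators 5 were near a strong peak and 1 near a core peak, the vascular homeobox gene ATHB-8. The ATHB-8 peak had a lowest score of 18.43, and its summit was nearer to the start of AT4G32870.

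Some genes had several core peaks. The annotation placed 25 genes near 2 or more core summits, and RAP2.12, which encodes an ethylene-response-factor-type regulator of the hypoxia response, near 3. One of the summits lay 352 bp upstream of its start, another 375 bp downstream and the third farther upstream, beside AT1G53903. All 3 met the same peak in ARR1 6-BA 3 days (124.51), ARR12 labelled mock (72.5) and ARR14 (111.85). Such sharing was limited, with 16 or fewer partner peaks in any list serving more than 1 member.

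Members also differed in which list they favoured. The members named here were chosen after their values were seen, from among those ranking furthest ahead in one list of their median in the other 7. They are only a part of that set. It also held AT1G53887, at percentile 16.3 of the etiolated list and at a median of 59.4 in the others. JAZ3 was at percentile 10.7 in ARR1 6-BA 3 days, 3.04 in ARR12 labelled mock and 7.46 in ARR14, but as low as 85.1 elsewhere. Its summits lay as far as 1088 bp from that of ARR1 6-BA 4 h, so these percentiles need not describe one place. WRKY11, a defence-related factor gene, was at percentile 5.09 of the etiolated list and at a median of 46.5 in the others. The catalase gene CAT1 was at 4.49 in ARR10 6-BA 4 h against a median of 56.8. PCME, a prenylcysteine methylesterase gene, was at 11.0 in ARR1DDK Dex and 4.61 in ARR14 against a median of 66 outside each. These spreads come from one list per condition, and how far a repeat would move them was not tested.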

How the data were processed

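Chromatin from tagged seedlings was precipitated with a GFP antibody and sequenced. Per the labels, the reads were mapped with Bowtie 0.12.7 to TAIR10 and peaks were called with MACS2 2.0.10. The authors combined replicates by reproducibility (IDR) and deposited 1 list per condition, with a fold enrichment (ratio to control), a −log10 p-value, an integer score of 10 times that value, and a summit for each peak. No read counts were used here, and depth is unknown.

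From these lists, overlap, ranks, summits and nearest genes were computed with Python 3.11.15, and figures drawn with matplotlib 3.10.9. A member's partner in a list was its overlapping strong peak with the highest score. RefSeq TAIR10.1, which has the same nuclear sequence, gave genes and sequences. Genes within 1.5 kb of a summit were counted, and a motif window was 201 bp. Named members were the 12 with the best worst percentile, all near listed genes, and 3 on each side of the limit. Members and gene lists were chosen with earlier results of these data known. The window sequence of 1 of the 12 is not reported here. Scripts were tested on simulated lists. The alternatives tried were other limits, overlaps, summit distances, windows and left-out lists. Of the 14 records, 2 RNA-seq records, input and IgG were not used.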

Additional observations from a re-analysis of the deposited data

How the results depend on the processing

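No paired analysis was possible because the labels give 1 list for a condition, with nothing to match across conditions. Of 55 alternatives, 30 left a value within its interval or, for a count, within 1.5 times. The 726 core peaks became 243 at a minimum of 30, 255 with reciprocal overlap, 330 with summits within 100 bp, 407 without peaks over 3 kb, 314 with the ARR12 lists exchanged, 22 with both unused lists added and 1328 without the etiolated list. Leaving out any of the 6 other lists gave 727 to 934.

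The median largest summit distance became 89 bp without peaks over 3 kb, 92.0 bp with reciprocal overlap and 96.0 bp at a minimum of 30. The share near a TSS was 37.3% for protein-coding genes and 55.4% within 500 bp. AGATHY was at 53.7% within 50 bp, and AGAT alone at 93.7%. Presence in ARR1 mock was 4.13% at a minimum of 16, 37.1% with summits within 100 bp and 79.0% when the rule's minimum was 30. For ARR12 labelled 6-BA it was 88.6% with every deposited peak, 32.2% with summits within 100 bp and 7.0% at 30. The shares with summits within 100 bp are given for core peaks only. Among every deposited peak, median percentiles fell to 8.54 in ARR1 6-BA 4 h, 7.32 in ARR1 6-BA 3 days, 6.05 in ARR10 mock and 8.15 in ARR10 6-BA 4 h. Counting only the nearest gene gave 648 genes. Without replicates or depth, no value here carries an error between samples.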
